A study of Mus musculus with 16 samples.

Results

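The plasminogen activator system of the injured mouse spinal cord is described here through 8 genes, taken by their symbols from the 24411 gene symbols in the files: the activators Plau and Plat, the receptor Plaur, the inhibitors Serpine2 and Serpini1, the coagulation initiator F3, and the plasminogen receptor subunits Anxa2 and S100a10. All 8 were found, and all 8 were among the 16091 genes that were tested, which had a mean TPM (a level per transcript length, scaled to the same sum in every mouse) above 1 in at least 1 of the 3 conditions.

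Plasmin is a protease that dissolves fibrin and also cuts proteins of the extracellular matrix and growth factor precursors. It is made from plasminogen by 2 activators, urokinase (uPA, encoded by Plau) and tissue plasminogen activator (tPA, encoded by Plat). Urokinase works while bound to its receptor uPAR (Plaur), and inhibitors of the serpin family trap either activator. In the nervous system tPA is also released by neurons, and urokinase and its receptor are known for their part in the movement of immune cells through tissue.

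Total RNA was sequenced from the spinal cords of 16 female C57BL/6J mice, 12 weeks old per the labels, in 3 groups. Injured mice received a lateral compression with a gap of 0.25 mm at vertebral level T8 to T9, and from 2 weeks after injury were dosed each day for 4 weeks. The SCI + Atorvastatin group (n = 7 mice) received 10 mg/kg atorvastatin, a statin that blocks cholesterol synthesis, in a mixture of DMSO, PEG 400, Tween 80 and saline, and the SCI + Vehicle group (n = 7 mice) received that mixture alone. The Uninjured Control group (n = 2 mice) had neither injury nor treatment. Surgery, injury, the vehicle and, by the study's account, age thus cannot be told apart in comparisons with it. Cords were taken 6 weeks after injury per the labels as a segment of 5 mm around the injury site or the matching site, and the study's methods state another age for the uninjured mice and another day of isolation.

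Counts on genes totalled 20143003 to 25579826 per SCI + Atorvastatin mouse and 14823292 to 23933435 per SCI + Vehicle mouse, with SCI + Vehicle replicate 4 the lowest of all, and 20211276 and 22368736 in the Uninjured Control mice. The libraries of the Uninjured Control mice stood apart: 2433 of the 16091 tested genes (15.1%) had no count in either of them, whereas any 2 mice of an injured group shared 255 to 550 such genes. Among tested genes with a mean of at least 100 counts in the other 14 mice, 529 (4.12% of 12826) had none in either uninjured mouse, against 3 to 35 for 2 mice of an injured group. The gene filter passes a gene on 1 condition, which leaves room for zeros in another. The liver transcript Alb stood at 3026 and 475 CPM (counts divided by the library total and scaled alike in every mouse) without injury and did not exceed 3.39 CPM in injured mice. Astrocytic Gfap lay between 6132 and 7511 CPM in injured mice and at 1673 and 2230 in uninjured mice, and neuronal Rbfox3 between 82.9 and 180 against 253 and 166. The segments thus held defining transcripts of spinal cord in every group.

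Promoter sequence is shown for the members whose window held an AP-1 site, the motif bound by Fos and Jun proteins. RefSeq windows (build GRCm38.p6) were found for 5 of the 8 members, Plaur, F3, Anxa2, Serpine2 and Serpini1, and the letters TGANTCA, which read the same on both strands, were searched in the 250 bases before each start. They occurred in 3 of the 5, against 6.75% of the 32851 windows in the table. Capitals mark these letters.
Plaur: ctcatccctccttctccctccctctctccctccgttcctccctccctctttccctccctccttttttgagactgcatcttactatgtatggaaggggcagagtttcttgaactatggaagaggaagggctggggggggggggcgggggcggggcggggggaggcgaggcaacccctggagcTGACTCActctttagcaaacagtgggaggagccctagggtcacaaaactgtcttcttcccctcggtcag
F3: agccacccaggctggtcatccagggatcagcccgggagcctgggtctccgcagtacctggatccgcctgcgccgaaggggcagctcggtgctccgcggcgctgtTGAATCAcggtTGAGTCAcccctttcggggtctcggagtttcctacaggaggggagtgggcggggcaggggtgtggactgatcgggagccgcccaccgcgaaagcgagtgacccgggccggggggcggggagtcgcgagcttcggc
Anxa2: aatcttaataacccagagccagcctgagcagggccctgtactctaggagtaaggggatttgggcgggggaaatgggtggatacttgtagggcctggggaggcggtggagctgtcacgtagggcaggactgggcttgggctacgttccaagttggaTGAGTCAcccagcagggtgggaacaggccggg
The Plaur window lies at chr7:24462233-24462482, that of F3 at chr3:121723287-121723536 and that of Anxa2, of which 187 bases are shown, at chr9:69453433-69453619, all on the plus strand. The site began 69 bases before the RefSeq start in Plaur, 95 bases in Anxa2, and 146 and 135 bases in F3, where it was present at both places. The last bases of the Anxa2 window, which are not shown, and the whole Serpine2 window lie within the gene bounds given below. The Sp1 letters GGGCGG, searched on both strands, were in 4 of the 5 windows, that of Serpine2 among them, and in 32.7% of all windows. The ETS letters GAGGAA, searched on both strands, were in 2 of the 5 and in 23.3% of all. A match describes the letters in the window and is not evidence that a factor binds there.

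Plau, on chromosome 14 of GRCm38 from 20836660 to 20843385, encodes urokinase. No count of it fell in either Uninjured Control library. After normalization by edgeR's TMM factors, which adjust the library totals, SCI + Vehicle mice had from 23.2 to 51.9 CPM (median 42.0), from 340 to 1234 counts. SCI + Atorvastatin mice had from 44.0 to 65.6 CPM (median 50.4), from 906 to 1420 counts. All 14 injured mice were therefore above both uninjured mice, and the lowest values among them were those of SCI + Vehicle replicates 4 and 7, at 23.2 and 24.3 CPM.

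Since Plau was at 0 in the controls, its fold is given only as a bound, against 3 counts in each control library (a mean of 0.144 CPM). It was at least 275-fold higher in SCI + Vehicle mice (mean 39.5 ± 11.7 CPM, SD, n = 7, adjusted p = 3.06e-05 by edgeR with Benjamini-Hochberg adjustment). In SCI + Atorvastatin mice it was at least 353.9-fold higher (mean 50.8 ± 7.83 CPM, SD, n = 7, adjusted p = 2.32e-06 by edgeR). The bounds cover counting error only, because reads that carry no molecular identifier may be copies of 1 molecule. They also take a 0 in the controls as a low level. S100a11 had 0 and 521 counts in the 2 uninjured mice, so a 0 in a control library is not proof of a level under 3 counts. This limit holds for every fold bound given here. A call against uninjured mice needed a log2 fold change beyond 0.322 in either direction (a change of 25%) and an adjusted p below 0.05, and Plau passed in both comparisons. Plau and Plaur entered the test only through their TPM in the injured groups, where they are high, which limits what their p-values can add. The same limit holds for the p-values of the other genes given below with a fold bound, which had no count in uninjured mice. It also holds for Plg, Fgg and Serpinb2, whose mean TPM was under 1 in both injured groups, so that they entered through the uninjured mice. The p-values measure the spread between mice of a group, with only 2 mice on the uninjured side.

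Plaur, on chromosome 7 from 24462484 to 24475968, encodes the receptor that holds urokinase at the cell surface. It too was at 0 in both Uninjured Control mice. SCI + Vehicle mice had from 4.63 to 9.21 CPM (median 6.33), from 110 to 219 counts, and SCI + Atorvastatin mice from 6.06 to 10.7 CPM (median 7.99), from 122 to 232 counts. The receptor was thus detected in every injured mouse. With the same bound it was higher by at least 49.5-fold in SCI + Vehicle mice (adjusted p = 0.000158 by edgeR). In SCI + Atorvastatin mice the bound was at least 57.1-fold higher (adjusted p = 3.48e-05 by edgeR).

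Summed markers of microglia and macrophages, cells known to make uPA and uPAR, were higher in injured than in uninjured mice, as were these genes. Their 8 genes summed to 66.3 and 171 CPM in the Uninjured Control mice, to 796 to 1098 in SCI + Vehicle mice and to 872 to 1364 in SCI + Atorvastatin mice. Of the 8, 6 were called higher with vehicle and 7 with atorvastatin, and none was at 0 in both uninjured mice. In each injured group the mouse with the highest sum had the lowest Plaur. These were SCI + Atorvastatin replicate 3 (6.06 CPM) and SCI + Vehicle replicate 2 (4.63 CPM). Their Plau was 65.6 and 42.0 CPM, the highest and the median of their groups. SCI + Vehicle replicates 4 and 7, lowest in Plau, also had the lowest sums of all injured mice, 866 and 796 CPM. With atorvastatin, replicate 1 had the lowest sum, 872 CPM, and 51.7 CPM of Plau, over the group median of 50.4. The part of microglia and macrophages in the rise of Plau and Plaur was not tested. In whole tissue, fewer or more cells of a type and less or more RNA per cell cannot be told apart.

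Plat, on chromosome 8 from 22757727 to 22782844, encodes tPA. The Uninjured Control mice differed from each other, with 42.6 CPM (846 counts) in replicate 1 and 2.54 CPM (56 counts) in replicate 2. SCI + Vehicle mice had from 63.1 to 89.7 CPM (median 78.4) and SCI + Atorvastatin mice from 69.0 to 96.8 CPM (median 83.4). Every injured mouse was above both uninjured mice, and the injured mice spread far less than the uninjured ones.

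The log2 fold change of Plat was 1.73 with vehicle (standard error 0.706, adjusted p = 0.0901 by edgeR). With atorvastatin it was 1.89 (standard error 0.723, adjusted p = 0.0619 by edgeR), so Plat was not called in either comparison. Its size rested on which control was used. Against control replicate 1 alone it was 0.81 in vehicle mice and 0.97 in atorvastatin mice, and against replicate 2 alone 4.87 and 5.04. In these fits of 7 mice against a lone control, which is assumed to vary like the injured mice, the gene was called (adjusted p from 2.02e-09 to 0.00714 in edgeR). DESeq2 on all mice called it too, with adjusted p of 0.0184 and 0.00807.

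**Figure D1:**
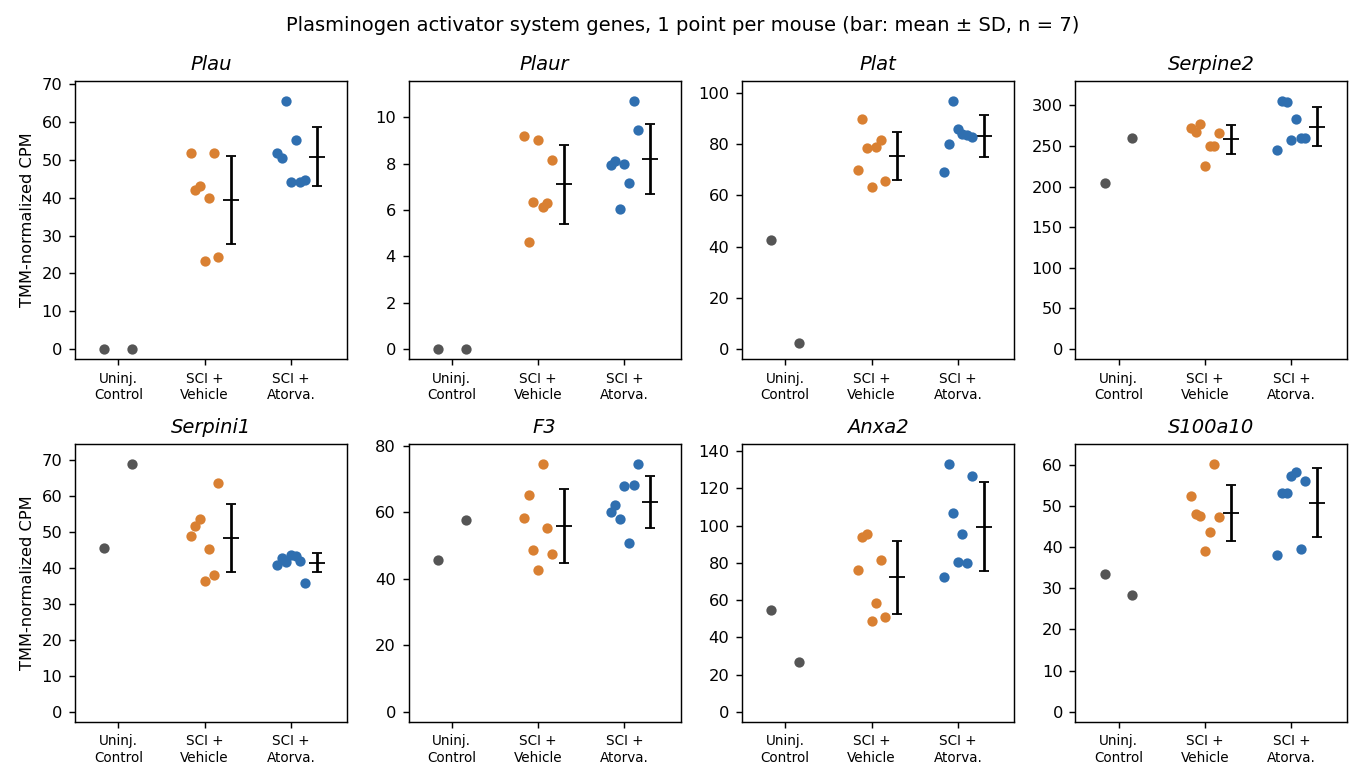
TMM-normalized CPM (y axis, from 0) of the 8 genes in each mouse, with the 3 groups along the x axis and the mean ± SD beside each group of 7 injured mice. Plau and Plaur are at 0 in both uninjured mice and above 0 in all 14 injured mice, Plat lies above both uninjured mice, and Serpine2 and F3 overlap with them.

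Serpine2, on chromosome 1 from 79794197 to 79861180, encodes protease nexin-1, a serpin of glia and neurons that inhibits thrombin, urokinase and tPA. It had 205 and 260 CPM in the Uninjured Control mice, from 225 to 277 CPM (median 266) in SCI + Vehicle mice and from 245 to 305 CPM (median 260) in SCI + Atorvastatin mice. The 3 groups overlapped. The log2 fold change against uninjured mice was 0.14 with vehicle (standard error 0.119, adjusted p = 0.421 by edgeR). It was 0.24 with atorvastatin (standard error 0.119, adjusted p = 0.132 by edgeR), and neither passed the test. The sign of the value with vehicle depended on the control, at 0.32 against replicate 1 and -0.022 against replicate 2. With atorvastatin the gene was called against replicate 1 alone (log2 fold change 0.42, adjusted p = 0.0202 in edgeR) and not against replicate 2 (0.085, adjusted p = 0.616). On TPM, limma called it in both comparisons, with log2 fold changes of 0.36 and 0.45 on log2(TPM + 1) and adjusted p of 0.0455 and 0.00562.

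Serpini1, on chromosome 3 from 75557547 to 75643495, encodes neuroserpin, the inhibitor of tPA that neurons make. The gene overlaps the unverified transcript Gm37672 on the same strand, which has no row of its own in the files. Its level was 45.7 and 69.1 CPM in the Uninjured Control mice, from 36.4 to 63.8 CPM (median 48.9) in SCI + Vehicle mice and from 36.0 to 43.6 CPM (median 42.1) in SCI + Atorvastatin mice. All 7 SCI + Atorvastatin mice were below both uninjured mice, whereas SCI + Vehicle mice overlapped with them.

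Serpini1 was called lower with atorvastatin (log2 fold change -0.46, standard error 0.158, adjusted p = 0.0420 by edgeR). With vehicle it was not called (log2 fold change -0.26, standard error 0.231, adjusted p = 0.429 by edgeR). The atorvastatin call was near the threshold. It was lost when any 1 of the 7 SCI + Atorvastatin mice was left out (adjusted p from 0.0559 to 0.0702 in edgeR), and against control replicate 1 alone (log2 fold change -0.14, adjusted p = 0.480), and in limma on log2(TPM + 1) (log2 fold change -0.27, adjusted p = 0.246). Against control replicate 2 alone the log2 fold change was -0.72. With vehicle it was 0.066 and -0.53 against replicates 1 and 2.

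The 8 neuron markers summed to 8978 and 9996 CPM in uninjured mice, to 4968 to 8052 CPM with vehicle and to 4729 to 6038 CPM with atorvastatin. Of them, 5 and 6 were called lower in these comparisons. SCI + Vehicle replicate 7 had the largest sum of all injured mice, at 8052 CPM, and the highest Serpini1 value of all injured mice, at 63.8 CPM. With atorvastatin, replicate 1 had the highest sum of the group, 6038 CPM, and 40.8 CPM of Serpini1, under the group median of 42.1. Replicate 2 had the lowest sum of all injured mice, 4729 CPM, and 42.7 CPM of Serpini1, over that median. The part of neurons in the Serpini1 values was not tested.

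F3, on chromosome 3 from 121723537 to 121735048, encodes tissue factor, which starts coagulation and in the nervous system is a product of astrocytes. Its values were 45.8 and 57.8 CPM in uninjured mice, from 42.5 to 74.7 CPM (median 55.2) with vehicle and from 50.6 to 74.4 CPM (median 62.1) with atorvastatin. The groups overlapped, with 1 SCI + Vehicle mouse below both uninjured mice and 3 above both. The log2 fold change was 0.10 with vehicle (standard error 0.218, adjusted p = 0.772 by edgeR). With atorvastatin it was 0.29 (standard error 0.162, adjusted p = 0.181 by edgeR). Neither passed the test, although the atorvastatin value was called against control replicate 1 alone (log2 fold change 0.46, adjusted p = 0.0487 in edgeR) and not against replicate 2 (0.14, adjusted p = 0.544). With vehicle the sign again turned with the control, at 0.28 and -0.057. The 8 astrocyte markers summed to 8474 and 9175 CPM in uninjured mice and to 12482 to 14857 CPM in injured mice.

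Anxa2, on chromosome 9 from 69453620 to 69491795, encodes annexin A2, a protein that binds membranes and, together with S100A10, holds plasminogen and tPA at the cell surface. Within its bounds lie the microRNA Mir3109 and the antisense gene Gm16144, which has no row in the files, and whether counting used the strand is not given in the sources used here. The Uninjured Control mice had 54.5 and 26.8 CPM. SCI + Vehicle mice had from 48.9 to 95.7 CPM (median 76.2), and SCI + Atorvastatin mice from 72.4 to 133 CPM (median 95.7). All 7 SCI + Atorvastatin mice and 5 of the 7 SCI + Vehicle mice were above both uninjured mice, the exceptions being SCI + Vehicle replicates 4 and 7.

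Anxa2 was called higher with atorvastatin (log2 fold change 1.3, standard error 0.318, adjusted p = 0.00869 by edgeR). With vehicle it was not called (log2 fold change 0.82, standard error 0.338, adjusted p = 0.0940 by edgeR). Against the lone controls 1 and 2 it was 0.39 and 1.42 with vehicle, the second of them called (adjusted p = 0.00627 in edgeR). With atorvastatin it was 0.87 and 1.90, both called (adjusted p = 0.0170 and 0.000106 in edgeR).

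S100a10, on chromosome 3 from 93555080 to 93564643, encodes the S100 protein that pairs with annexin A2 and carries the plasminogen binding site. The Uninjured Control mice had 33.5 and 28.3 CPM. SCI + Vehicle mice had from 39.0 to 60.3 CPM (median 47.5) and SCI + Atorvastatin mice from 38.2 to 58.2 CPM (median 53.2). The injured mice were all above the uninjured mice. S100a10 was called higher with vehicle (log2 fold change 0.63, standard error 0.191, adjusted p = 0.0310 by edgeR). It was also called higher with atorvastatin (log2 fold change 0.73, standard error 0.202, adjusted p = 0.0168 by edgeR).

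The vehicle call of S100a10 was lost without replicate 2, 3 or 6 of that group (adjusted p = 0.0543, 0.0524 and 0.0531 in edgeR) and against control replicate 1 alone (log2 fold change 0.51, adjusted p = 0.0854). The authors' TPM gave a larger difference for this gene. The uninjured mice had near-equal counts, 667 and 624, but a TPM of 175 and 60.9, that is 5.22 and 2.15 TPM per CPM, whereas injured mice had from 5.30 to 6.62 TPM per CPM. The log2 ratio of mean TPM was 1.21 with vehicle and 1.33 with atorvastatin.

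Fibroblast markers were lowest and highest in the same injured mice as Anxa2, but did not follow it in every mouse. SCI + Vehicle replicate 3 had the highest Anxa2 of its group, 95.7 CPM, with the group's median fibroblast sum, 707 CPM. The 7 fibroblast genes summed to 343.2 and 311 CPM in uninjured mice, to 196 to 1205 CPM with vehicle and to 765 to 2033 CPM with atorvastatin, and 0 and 5 of them were called higher in edgeR. The lowest sums with vehicle, 258 and 196 CPM, were those of replicates 4 and 7, which also had the lowest Plau and Anxa2 of all injured mice. These mice had the lowest sums of microglia and macrophage markers of all injured mice as well. The highest sums with atorvastatin, 2033 and 1711 CPM, were those of replicates 2 and 7, which had the highest Anxa2 of all injured mice, 133 and 127 CPM. Their Plau was 50.4 and 44.6 CPM, against a group median of 50.4 CPM. The part of fibroblasts in these values was not tested.

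**Figure D2:**
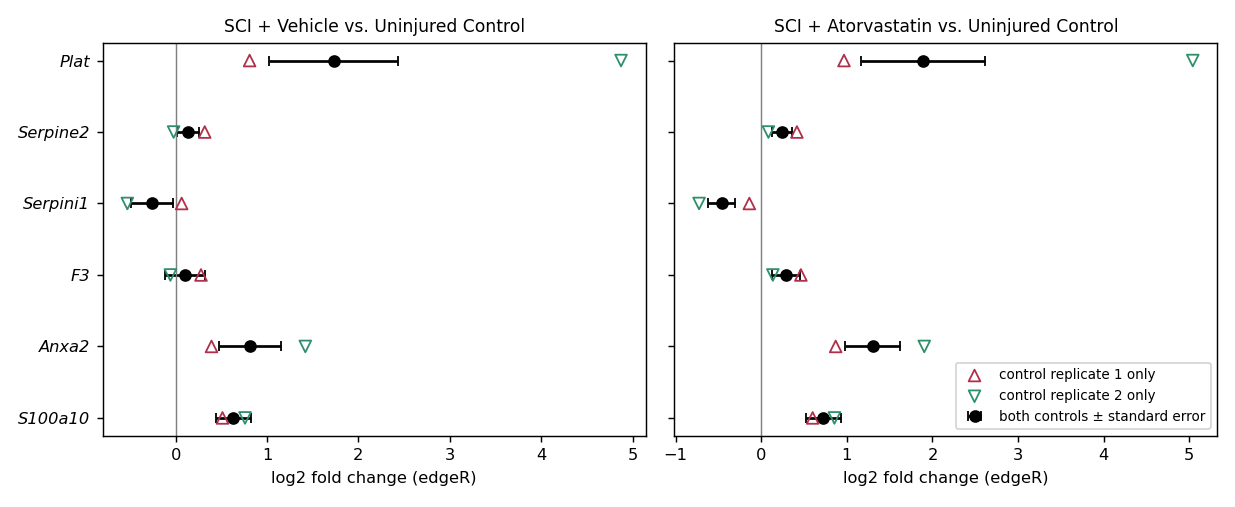
Log2 fold change against the Uninjured Control group (x axis) of the 6 genes with counts in uninjured mice (y axis), by edgeR with both controls (black points, bars are the standard error) and with each control alone (triangles). For Plat the values against controls 1 and 2 lie far apart, 0.81 and 4.87 with vehicle, and for Serpine2, Serpini1 and F3 they fall on both sides of 0 with vehicle.

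Counted together, 3 of the 8 genes were called higher in SCI + Vehicle vs. Uninjured Control (Plau, Plaur and S100a10) and 0 lower in edgeR. Of all tested genes 29.4% were called in this comparison, 19.8% higher and 9.55% lower. For SCI + Atorvastatin mice against the same controls, 4 were called higher (Plau, Plaur, Anxa2 and S100a10) and 1 lower (Serpini1). There 38.9% of all tested genes were called, 24.9% higher and 14% lower. The groups did not overlap for 4 of the 8 genes with vehicle and 6 with atorvastatin, against 35.6% and 44% of all tested genes. The median log2 fold change of the 8 was 0.72 and 1.01, against 0.17 and 0.21 over all tested genes. Plau and Plaur, which entered the test only through the injured groups, are part of all these counts and medians. Apart from them, S100a10 was called with vehicle, and Anxa2, S100a10 and Serpini1 with atorvastatin. With Plau and Plaur at their bounds the median of the 8 was the same, as it had to be, since both stay the highest of the 8.

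The 2 comparisons share their control mice. That Anxa2 and Serpini1 were called with atorvastatin and not with vehicle does not show that the treatments differ, which is answered by the direct comparison below. In voom with group quality weights none of the 8 genes was called in either comparison. There 1 and 2 of them had an unadjusted p under 0.05, the adjusted p values ranged from 0.398 to 0.929 and from 0.270 to 0.736, and this fit called 132 and 145 genes in all.

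Between SCI + Atorvastatin and SCI + Vehicle mice none of the 8 genes was called. The rule here was an unadjusted p below 0.001 in edgeR with the same limit on the fold change, by which 17 genes (0.106% of those tested) were called, none of them at an adjusted p below 0.05. DESeq2 and limma called none of the 8 either. The value was higher with atorvastatin for 7 of the 8, and 2 had an unadjusted p under 0.05, as had 1132 of all 16091 tested genes (7.03%).

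The largest difference was that of Anxa2 (log2 fold change 0.46, standard error 0.163, adjusted p = 0.680 by edgeR), with 6 of 7 SCI + Atorvastatin mice above the SCI + Vehicle median and 3 above every SCI + Vehicle mouse. Plau followed (log2 fold change 0.36, standard error 0.161, adjusted p = 0.693 by edgeR), with 7 of 7 mice above the SCI + Vehicle median and 2 above every SCI + Vehicle mouse. Serpini1 was the gene with a negative value (log2 fold change -0.22, standard error 0.110, adjusted p = 0.723 by edgeR), and 0 of 7 mice were above the SCI + Vehicle median. The others were Plaur at 0.21, F3 at 0.17, Plat at 0.14, Serpine2 at 0.083 and S100a10 at 0.072 on the log2 scale. With any 1 mouse left out, Anxa2 stayed between 0.38 and 0.53 and Plau between 0.27 and 0.44.

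**Figure D3:**
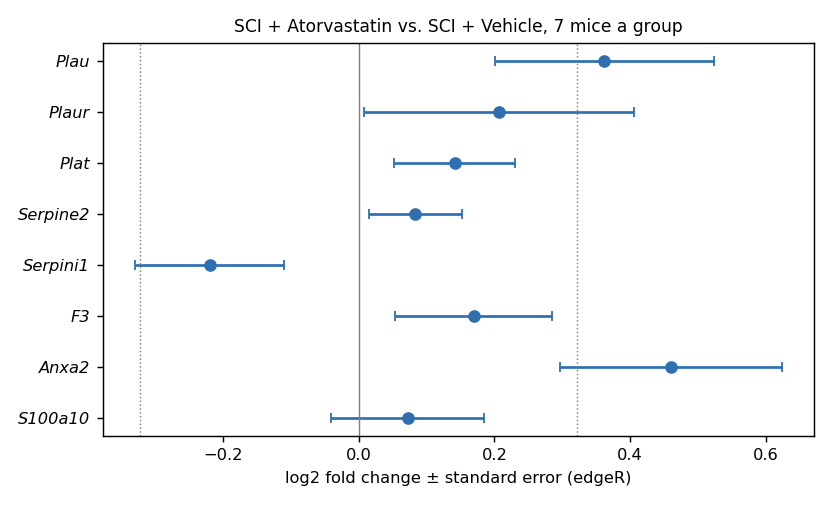
Log2 fold change of SCI + Atorvastatin against SCI + Vehicle mice (x axis, bars are the standard error by edgeR) for the 8 genes (y axis), with dotted lines at the limit on the fold change, 0.322 in either direction. Anxa2 and Plau lie furthest to the right, at 0.46 and 0.36, Serpini1 lies at -0.22, and none was called.

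Levels of different genes can be compared only per length, so TPM is used for their order. In SCI + Atorvastatin mice the mean TPM was 360 ± 21.8 (SD, n = 7) for Serpine2, 296 ± 42.3 for S100a10, 170 ± 42.1 for Anxa2, 89.9 ± 13.9 for F3, 81.9 ± 6.90 for Plat, 54.4 ± 8.95 for Plau, 36.4 ± 2.20 for Serpini1 and 9.58 ± 3.59 for Plaur. Of the neighbours in this order, Serpine2 and S100a10 overlapped, as did F3 and Plat, and the other pairs did not. SCI + Vehicle mice had the same order except that Serpini1 (41.9 ± 7.88) and Plau (40.9 ± 11.4) changed places, and their ranges overlapped. With vehicle, Anxa2 and F3 overlapped as well. In the Uninjured Control mice Serpine2 was highest (236 and 291 TPM), S100a10, F3, Anxa2 and Serpini1 followed with neighbours that overlapped, Plat was lower (33.0 and 2.85 TPM), and Plau and Plaur were at 0. Protease nexin-1 was thus the most abundant transcript of the 8 in every group, and uPAR the least abundant in the injured cord.

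Plaur varied in TPM beyond what its counts show. In SCI + Vehicle replicate 7 it had 185 counts and a TPM of 2.46, and in replicate 1 it had 219 counts and a TPM of 18.8. Its ratio of TPM to CPM ran from 0.30 to 2.04 over the injured mice, against 0.95 to 1.18 for Plau.

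On the CPM scale the spread between mice of a group was narrowest for Serpini1 with atorvastatin (coefficient of variation 6.30%, and 2.56% without replicate 7) and for Serpine2 with vehicle (6.93%, and 4.36% without replicate 4). It was widest for Anxa2 with atorvastatin (24.0%) and for Plau with vehicle (29.6%). With atorvastatin that of Plau was 15.4%, and 9.87% without replicate 3, and the difference in spread was not tested.

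Partners that work as pairs were compared across the mice of each injured group, on log2(CPM + 1), in 6 relations of which none passed at an adjusted p below 0.05. Annexin A2 and S100A10 form 1 complex. Their genes had r = 0.60 with atorvastatin (exact permutation p = 0.164, adjusted 0.356, rho = 0.36, exact permutation p = 0.444, adjusted 0.667, n = 7). With vehicle r was 0.58 (exact permutation p = 0.178, adjusted 0.356, rho = 0.64, exact permutation p = 0.139, adjusted 0.417, n = 7). Without the 2 mice farthest from the median of Anxa2, r was 0.66 and 0.29, so that with vehicle the value rested on replicates 4 and 7.

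Urokinase and its receptor had a negative r with atorvastatin, which missed the threshold after adjustment (r = -0.88, exact permutation p = 0.00952, adjusted 0.0571, rho = -0.79, exact permutation p = 0.0480, adjusted 0.288, n = 7). Replicate 3 had the highest Plau, 65.6 CPM, and the lowest Plaur, 6.06 CPM. Without replicates 3 and 4, r was -0.97. With vehicle r was -0.40 (exact permutation p = 0.354, adjusted 0.530, rho = 0.036, exact permutation p = 0.963, adjusted 0.963, n = 7), and 0.66 without replicates 4 and 7, the 2 mice low in Plau. Whether the groups differ in this relation was not tested.

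Plat and Serpini1, activator and inhibitor of neurons, showed r = 0.13 with atorvastatin (exact permutation p = 0.659, adjusted 0.790, rho = 0.43, exact permutation p = 0.354, adjusted 0.667, n = 7). With vehicle r was 0.025 (exact permutation p = 0.955, adjusted 0.955, rho = 0.036, exact permutation p = 0.963, adjusted 0.963, n = 7). Without the 2 mice farthest from the median of Plat these were 0.18 and -0.017. All values were read with 2-sided tests.

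**Figure D4:**
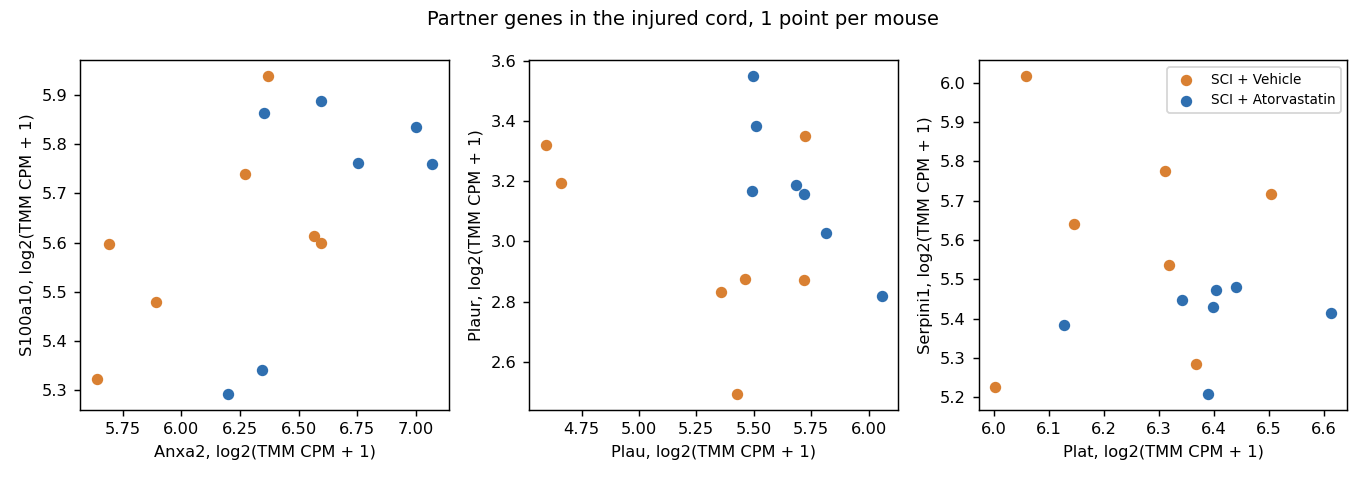
Log2(CPM + 1) of partner genes in the 14 injured mice, 1 point per mouse, for Anxa2 and S100a10, Plau and Plaur, and Plat and Serpini1 (x and y axes as named). Plaur is lower where Plau is higher among the 7 SCI + Atorvastatin mice (r = -0.88), and the 2 SCI + Vehicle mice with low Plau have Plaur values among the higher ones of their group.

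Across the 14 injured mice, with the mean of each group removed, the pattern of Plau was most like that of Snx5 (r = 0.97), Pdgfb (0.96) and Rin2 (0.95) among 12825 genes searched. That of Plaur was most like 4933400F21Rik (0.92), Snx8 (0.91) and Tfb1m (0.87), and that of Plat most like Manba (0.93), Ccnd2 (0.92) and Tor3a (0.91). Anxa2 was most like Sdc1 (0.95), Efnb1 (0.90) and Itm2b (0.90), and S100a10 most like Hmgn1 (0.85), P4hb (0.85) and Tlr3 (0.85). Serpine2 was nearest to Prkrir (0.93), Ccl6 (0.92) and Imp4 (0.88), Serpini1 to Mtch2 (0.93), Hspd1 (0.91) and Tarsl2 (0.90), and F3 to Mccc1 (0.88), St5 (0.88) and Atxn1l (0.87). These are descriptions, picked as the highest of many, and the mice share libraries of unequal depth. None of the 8 members was among the nearest genes of another.

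The other genes of the pathway were read from 6 lists with 76 genes, of which 70 were tested. In SCI + Vehicle vs. Uninjured Control 21 of them were called higher, 12 lower and 37 not called, and for SCI + Atorvastatin mice 32 were higher, 15 lower and 23 not called. Of all tested genes 19.8% were called higher and 9.55% lower with vehicle, and 24.9% and 14% with atorvastatin. The counts per list below are to be read beside these shares. The median log2 fold change of the 70 genes was 0.57 and 0.73, against 0.17 and 0.21 over all tested genes. It was 0.48 and 0.69 over 69 of the 70, with genes at 0 in both controls set to their bound and Eno1, which was under the bound, left out. Between the treatments 0 of the 70 were called in edgeR and in DESeq2, and 12 had an unadjusted p under 0.05, against 7.03% of all tested genes, with a median log2 fold change of 0.17 against -0.0014 over all tested genes.

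Plasminogen itself, the substrate of both activators, was read 2462 and 1284 times without injury (124 and 58.3 CPM) and did not exceed 1.45 CPM after it. Plg was called lower in both comparisons (adjusted p = 0.000127 and 0.000214 by edgeR). It is a product of the liver, and so are fibrinogen and most coagulation factors. Fgg, the fibrinogen gamma chain, had 146 and 49.9 CPM in uninjured mice and at most 0.389 in injured mice (adjusted p = 3.00e-05 and 3.98e-05 by edgeR). Of 7 liver markers 6 were called lower in both comparisons. One of the 7 is Trf, which oligodendrocytes make too and which lay between 1020 and 1333 CPM in injured mice. The other 6 summed to 3950 and 617 CPM in uninjured mice, to 1.09 to 6.45 CPM with vehicle and to 0.397 to 5.44 CPM with atorvastatin. The part of liver transcripts in these values was not tested.

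Of the 10 genes for plasminogen, its receptors and plasmin inhibitors, 3 were called higher and 3 lower with vehicle, and 5 higher and 3 lower with atorvastatin. A2m, a broad protease trap that also binds plasmin, had 31.7 and 68.5 CPM in uninjured mice and 518 ± 57.2 CPM with vehicle (SD, n = 7). It rose by 3.36 in vehicle mice and by 3.51 in atorvastatin mice on the log2 scale (adjusted p = 5.48e-05 and 1.76e-05 by edgeR). Tgm2, which crosslinks proteins, rose by 1.66 and 2.13 on the log2 scale (adjusted p = 0.00155 and 5.92e-05 by edgeR). Plgrkt, a plasminogen receptor, rose by 2.23 and 2.41 (adjusted p = 0.0399 and 0.0116 by edgeR).

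Mrc2, the uPAR-associated collagen receptor, was called with atorvastatin (log2 fold change 2.60, adjusted p = 0.000196 by edgeR) and had 1.83 with vehicle (adjusted p = 0.0597 by edgeR). Lrp1, the receptor that clears activators bound to their inhibitors, was likewise called with atorvastatin at 0.42 (adjusted p = 0.0378 by edgeR) and had 0.29 with vehicle (adjusted p = 0.217 by edgeR). Serpinf2, the main plasmin inhibitor of blood, had 220 counts in control replicate 1 and 0 in replicate 2, and was not called.

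A list of further serpins, most of which are not known as inhibitors of uPA or tPA, had 6 tested genes. Of these 2 were called higher and 0 lower with vehicle, and 4 higher and 1 lower with atorvastatin. Serpinb8, an intracellular serpin, was at 0 in the uninjured mice and, with the bound of 3 counts, at least 19.1-fold and at least 24.6-fold higher (adjusted p = 0.00572 and 0.000301 by edgeR).

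Serping1, the C1 inhibitor, had 1.88 with atorvastatin (adjusted p = 0.00322 by edgeR) and 1.18 with vehicle (adjusted p = 0.203 by edgeR). Serpinb2, which encodes PAI-2, had 0 and 134 counts in the uninjured mice and at most 0.463 CPM in injured mice, and was called lower with atorvastatin (adjusted p = 0.00387 by edgeR) and not with vehicle (adjusted p = 0.0556 by edgeR). Its values rest on control replicate 2.

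The coagulation list had 18 tested genes, of which 4 were called higher and 8 lower with vehicle, and 6 higher and 8 lower with atorvastatin. F13a1, the subunit of factor XIII that crosslinks fibrin, and F8, coagulation factor VIII, were at 0 in the uninjured mice. F13a1 was at least 98.8-fold and at least 133-fold higher (adjusted p = 0.000280 and 1.02e-05 by edgeR), and F8 at least 63.3-fold and at least 70.5-fold higher (adjusted p = 0.000127 and 3.27e-05 by edgeR). Tfpi, the inhibitor of the tissue factor pathway, had a log2 fold change of 1.83 with atorvastatin (adjusted p = 0.00420 by edgeR) and 1.12 with vehicle (adjusted p = 0.293 by edgeR).

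Of the protease-activated receptors, 2 were tested. F2rl2 was called higher in both comparisons (log2 fold change 4.06 and 3.87, adjusted p = 0.0219 and 0.0215 by edgeR), with 30 and 0 counts in the uninjured mice. F2r, the main thrombin receptor, was not called (-0.60 and -0.31, adjusted p = 0.504 and 0.579 by edgeR).

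Relatives of Anxa2 and S100a10 formed a list of 17 genes, of which 5 were called higher and 1 lower with vehicle, and 8 higher and 3 lower with atorvastatin. S100a6 had 4.78 and 1.04 CPM in uninjured mice and rose by 4.38 and 4.74 on the log2 scale (adjusted p = 0.000261 and 0.000115 by edgeR). Anxa4 rose by 2.97 and 3.11 (adjusted p = 0.000913 and 0.000114 by edgeR). S100a4 was at 0 in the uninjured mice and at least 48.8-fold and at least 54.7-fold higher (adjusted p = 0.000186 and 8.45e-05 by edgeR). Ahnak, a large scaffold protein bound by the annexin A2 and S100A10 complex, had a log2 fold change of 1.42 with atorvastatin (adjusted p = 0.00171 by edgeR) and 0.80 with vehicle (adjusted p = 0.155 by edgeR). S100a11 had 0 and 521 counts in the uninjured mice and was not called.

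Of the 17 substrates and surface partners of the activators, 6 were called higher with vehicle and 8 with atorvastatin, and 0 lower in either. Mmp2, a gelatinase, and Hgf, a growth factor that urokinase can activate, were at 0 in the uninjured mice. Mmp2 was at least 119-fold and at least 161-fold higher (adjusted p = 0.000131 and 1.34e-05 by edgeR), and Hgf at least 37.4-fold and at least 52.4-fold (adjusted p = 0.000931 and 0.000133 by edgeR). Itgb2, the integrin chain of leukocytes that pairs with the uPAR partner Itgam, had 91 and 0 counts in the uninjured mice and rose by 5.60 and 5.77 (adjusted p = 0.00157 and 0.000868 by edgeR). Fn1, fibronectin, had a log2 fold change of 1.57 with atorvastatin (adjusted p = 0.000414 by edgeR) and 1.13 with vehicle (adjusted p = 0.0717 by edgeR).

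**Figure D5:**
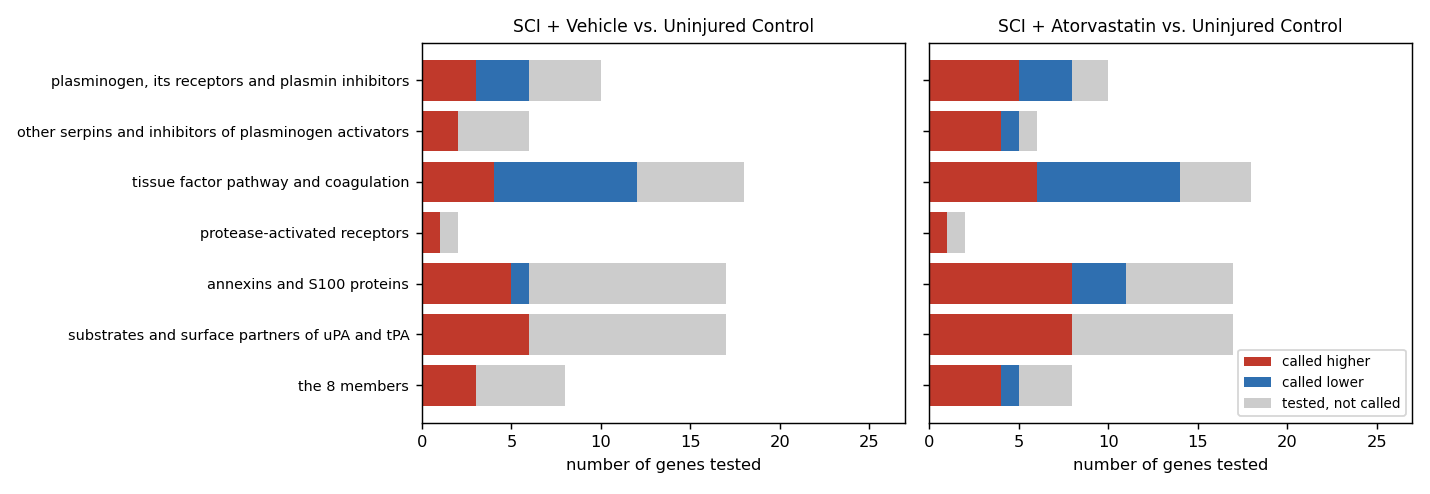
Number of tested genes (x axis) called higher (red), called lower (blue) and not called (grey) in edgeR against the Uninjured Control group, for the 6 lists and the 8 genes of the report (y axis). The coagulation list holds the most genes called lower, 8 of 18 in each panel, and the list of substrates and surface partners holds none.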

How the data were processed

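Spinal cord RNA of 16 mice was prepared with a stranded total RNA kit and sequenced on an Illumina NovaSeq. Per the submitters' processing notes, the authors used FastQC 0.12.1, Trimmomatic 0.38, STAR 2.5.4b (mm10) and RSEM 1.3.1. Raw counts in whole numbers and TPM values from RSEM were deposited by the authors, the former with no normalization and the latter normalized for transcript length and library. Which program made the whole numbers is not given in the sources used here. Groups came from the labels. The 8 members and the lists were chosen with earlier results of these data known.

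Counts of 16091 genes (mean TPM over 1 in 1 or more conditions) were fitted pair by pair in edgeR 4.0.16 (R 4.3.3, TMM, quasi-likelihood test, Benjamini-Hochberg over all tested genes). A call needed a log2 fold change beyond 0.322 in either direction and an adjusted p below 0.05, or an unadjusted p below 0.001 between treatments. The study's methods use DESeq2, which is an alternative here (1.42.0). The others were DESeq2 size factors, 1 fit of all groups, other gene filters, other thresholds, limma 3.58.1 on log2(TPM + 1) and log2(TPM + 0.001), voom with group quality weights, a replicate block, and each mouse left out. Fits were tested on simulated data. Correlations within groups of 7 used all 5040 pairings. No 2 mice of a group had counts that agree within sampling noise. Figures were drawn with matplotlib 3.10.9.

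Named genes are the 8 members, the 3 genes per list with the smallest p in each comparison with the Uninjured Control group, 12 direct partners, and for likeness the 3 genes with the highest r. The results of 1 gene under this rule are not reported here. Markers of 11 cell types were read as sums of CPM, and those not described beside a result are given in the closing section. Positions are GENCODE vM21 on GRCm38, and promoters are RefSeq's on GRCm38.p6.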

Additional observations from a re-analysis of the deposited data

Results flagged for a closer look

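Serpini1 in SCI + Atorvastatin replicate 7 had 35.97 CPM, lower than the other 6 mice of its group by a gap of 0.629 of the group's whole range. Of 16 groups examined (8 genes in 2 groups of 7 mice) this was the 1 group with a sample so far from the others, and chance alone gives about 1 in 20. Without this mouse the log2 fold change of Serpini1 against the Uninjured Control group was -0.43 (adjusted p = 0.0702 in edgeR).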

How the results depend on the processing

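With only 2 uninjured mice, their own spread limits every comparison with them, and Plau and Plaur have no value in either. The number of the 8 members called with vehicle, 3 in the reported fit, was 5 with all 3 groups in 1 fit, 1 after a filter for TPM over 1 in all conditions, 1 after a filter for 10 counts in all mice, 6 in limma on log2(TPM + 1), 5 on log2(TPM + 0.001) and 0 in voom with group quality weights. Of all genes in the fit, 19.1% were called after the TPM filter, 26.4% after the count filter, 27.7% and 31.1% in limma, and 0.82% in voom. With atorvastatin the number of members called, 5 in the reported fit, was 2 after the TPM filter and 0 in voom. These fits called 29.5% and 0.901% of all their genes. DESeq2 and the fit of all 3 groups called Plat besides the 5 of the reported fit, and called 44.8% and 44.3% of all tested genes. Both limma fits called Plat and Serpine2 but not Serpini1. On log2(TPM + 1) and log2(TPM + 0.001) limma called 39.3% and 41.8% of all tested genes. Both filters remove Plau and Plaur by construction. Of the other pathway genes, 33 and 47 in the reported fits, 8 and 21 were called after the TPM filter, 11 and 24 after the count filter, and 10 and 10 in voom. With vehicle the TPM and count filters left 45 and 37 of the 70 genes in the fit. The 10 in voom with vehicle were 1 higher and 9 lower, against 21 higher and 12 lower in the reported fit. Between treatments, at an unadjusted p under 0.05, 2 members and 10 other pathway genes passed the limits. Before the limit on the fold change, 7.03% of all tested genes had such a p in edgeR. Leaving out 1 mouse gave from 2 to 5 members called with vehicle, from 4 to 7 with atorvastatin, and 0 between treatments. The 5 with vehicle came without Uninjured Control replicate 1, where 47.7% of all tested genes were called, and the 7 with atorvastatin without replicate 2, where 61.1% were. With all 3 groups in 1 fit 40.9% were called with vehicle.

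Replicate numbers did not pair the mice. The deviations of same-numbered SCI + Atorvastatin and SCI + Vehicle mice correlated from -0.192 to 0.111, and 0 of 7 correlated best with their own number. With the number as a replicate block, 0 members were called with vehicle and 0 with atorvastatin (1 and 3 with an unadjusted p under 0.05 in edgeR), and 1 and 0 of the other pathway genes. The block called 16 and 0 of all 16091 genes, and 10.2% and 8.56% of them had an unadjusted p under 0.05 in edgeR. The Uninjured Control group holds numbers 1 and 2 only, so injured mice with other numbers add nothing to the difference in this fit. The loss of calls is therefore not read as a result about the members.

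Leaving out 1 mouse turned the sign of Serpine2 (from -0.022 to 0.32), Serpini1 (from -0.53 to 0.066) and F3 (from -0.057 to 0.28) with vehicle, each when 1 control was left out. The correlation of Plau with Plaur with atorvastatin was -0.88 on log2(CPM + 0.1), with an adjusted p of 0.0488 from the exact permutation test. With 1 mouse left out it ran from -0.97 (without replicate 4, adjusted p = 0.00833 from the exact permutation test) to -0.76. On TPM, SCI + Atorvastatin replicates 4 and 6 had the lowest and highest Plaur of their group, 5.76 and 15.9. Their Plau TPM was 48.38 and 48.44, so the negative relation was less plain on that scale. With vehicle the correlation of Plau with Plaur was 0.44 on log2(TPM + 1), against -0.40. That of Plat with Serpini1 was -0.21 with atorvastatin on log2(TPM + 1), against 0.13, and with vehicle ran from -0.50 to 0.49 with 1 mouse left out. Of the log2 fold changes of the members, 195 of 230 under other settings and 234 of 256 with 1 mouse left out kept their direction and their side of the threshold. The cause of these changes was not tested.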

Other observations

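Plaur differed from the other members in how it varied among the 14 injured mice with the mean of each group removed. Its r was negative with all 7 of them, from -0.73 with Plat and -0.51 with Plau to -0.15 with Serpini1. Anxa2 had r = 0.64 with Serpine2, 0.61 with Plat and 0.60 with Plau. These are descriptions over 14 mice that share libraries of unequal depth.

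Eno1, which encodes an enolase that also binds plasminogen at the cell surface, had at most 12 counts in any injured mouse and 0 in the uninjured mice, but a mean TPM of 488 with atorvastatin and 580 with vehicle. Its count level is therefore not read as its expression.

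Among the marker lists not described above, oligodendrocyte genes summed to 14131 and 18467 CPM in uninjured mice, 14250 to 19037 with vehicle and 13191 to 15103 with atorvastatin. Endothelial genes summed to 257 and 208, 139 to 241 and 192 to 281 CPM, and Schwann cell genes to 1170 and 1205, 651 to 897 and 719 to 1021 CPM. Skeletal muscle genes summed to 21.6 and 63.6, 5.86 to 357 and 4.92 to 1541 CPM, and neutrophil genes to 26.1 and 76.9, 27.7 to 194 and 29.3 to 150 CPM. Red blood cell genes summed to 0 and 0.817, 6.34 to 48.3 and 10.4 to 19.7 CPM, with Hba-a1, Hba-a2, Hbb-bs and Hbb-bt at 0 in every mouse.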
